A study of Mus musculus with 20 samples.

Results

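Centroblasts, the dividing B cells of the germinal centre dark zone, were compared between mice with the L252P allele of Myd88 and controls, across all expressed genes and with most room given to genes outside the usual B cell lists. The comparison used every library whose title names it as centroblast, which is 10 of the 20 libraries of the series. The 5 control libraries had the genotype Cgamma1Cre:+/-; Myd88L252P:WT, and the 5 mutant libraries Cgamma1Cre:+/-; Myd88L252P:+/-. Both groups therefore carried 1 copy of a Cre recombinase driven from the C gamma 1 immunoglobulin locus, a driver used to act on B cells as they enter the germinal centre, and the mutants carried the Myd88 allele on 1 chromosome. The gate for both genotypes was B220+FAS+GL7+CXCR4+CD86-, and the 10 centrocyte libraries of the same genotypes, used here as reference values, came from a CXCR4 negative and CD86 positive gate. The labels do not give age or immunisation and do not tie libraries to separate mice. The p-values therefore measure the spread between these samples, which may be technical. The RNA is bulk RNA of a gate, in which fewer cells of a type and less RNA per cell cannot be told apart.

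Myd88 is the adaptor that couples Toll-like receptors and receptors of the interleukin-1 family to IRAK kinases, and through them to NF-kB and MAP kinases. L252P is the mouse counterpart of a change that recurs in human B cell lymphoma. Centroblasts divide and mutate their antibody genes, and then move to the light zone as centrocytes, where antigen and T cell help select them.

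Values are TPM, a length-corrected transcript abundance with an equal total in each library. A gene is called when limma on log2(TPM + 1) gave a Benjamini-Hochberg adjusted p under 0.05 over all genes that reached 1 TPM in 5 or more of the 10 libraries. Fold changes are mutant minus control on that log2 scale, which understates changes of low genes.

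The centroblast label held against its markers, since all 15 germinal centre B cell markers were above 0 in the centroblast libraries. Their summed level was 14345 to 15173 TPM in controls, 13230 to 13696 TPM in mutants 1 to 3, and 14601 and 14647 TPM in mutants 4 and 5 (exact two-sided permutation p = 0.0397 over 5 against 5, and 0.0179 without mutants 4 and 5). Markers of stroma and dendritic cells summed to 91.5 ± 9.18 TPM in controls and 71.0 ± 11.97 TPM in mutants (SD, n = 5 each; exact two-sided permutation p = 0.0317, and 0.107 without mutants 4 and 5). Of those 13 markers 9 were under 1 TPM in all 10 libraries, and most of the sum came from Pecam1 and Flt3. The part of these differences in the results was not tested. Mutant libraries 4 and 5 stood apart from the other 8 in composition. Ribosomal protein genes took 12.5% and 17.1% of their TPM, against 8.37% to 10.03% in the rest, and genes with short transcripts (at most 779 bases) took 42.3% and 47.3%, against 36.4% to 38.7%. Over 5 against 5 libraries neither difference in share passed an exact two-sided permutation test (p = 0.0794 and 0.0952). The number of genes above 0 was 12895 and 12719 in those libraries and 13053 to 13372 in the rest. Results are therefore given with all 10 libraries and again without mutants 4 and 5.

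**Figure D1:**
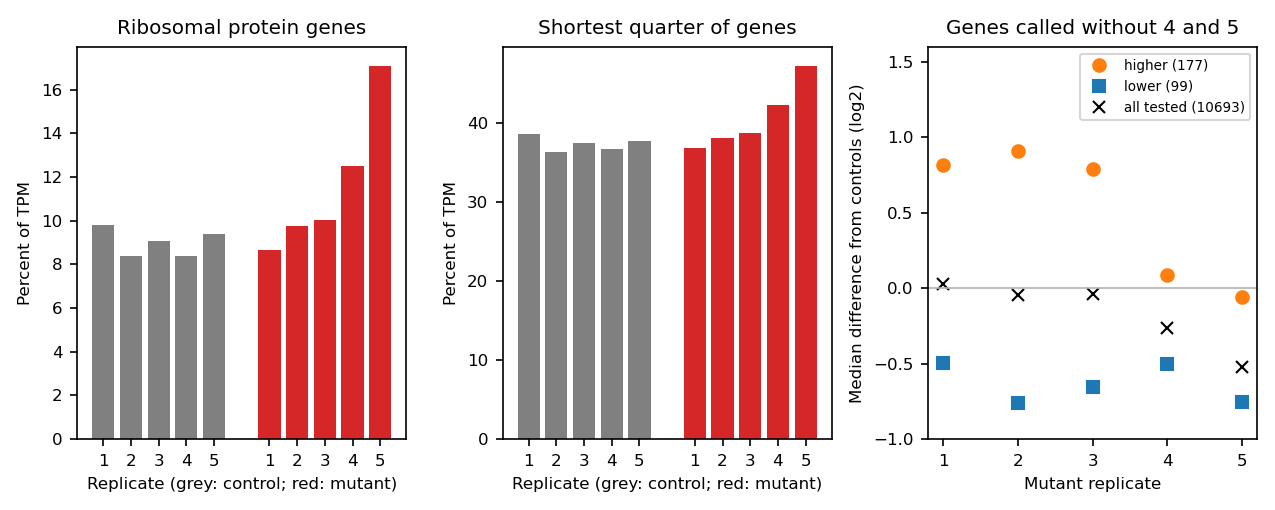
The left and middle panels plot, for each centroblast library, the percent of TPM in ribosomal protein genes and in genes with short transcripts, with bars from 0. The right panel plots, for each mutant library, the median log2 difference from the control mean over the 177 genes called higher without mutants 4 and 5, the 99 called lower and all genes tested. Mutants 4 and 5 have the tallest bars. In the right panel they lie at 0.089 and -0.061 for the genes called higher and at -0.50 and -0.75 for those called lower. Over all genes tested they lie at -0.26 and -0.52, between the other 2 sets.

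With all 10 libraries 27 of 10693 genes were called (0.253%), 9 higher in mutants (0.0842%) and 18 lower (0.168%), and 1771 had an unadjusted p under 0.05. Over all genes tested the median fold change was -0.16, and it was 0.007 after median-of-ratios scaling. After that scaling more genes were called higher than lower, so the excess of falls depended on it. Of the 27 genes 22 were still called then. The calls lost were all falls, those of Aldh2, Bank1, Kmo, Rab37 and Sepp1. In 409 genes (3.82%) the groups of 5 did not overlap in unscaled TPM, with mutants above in 79 (0.739%) and below in 330 (3.09%). Without mutants 4 and 5 the count was 276 of 10621 (2.6%), 177 higher (1.67%) and 99 lower (0.932%). Of the 27 genes, 26 were called in the same direction in that smaller set. The exception was Xlr, which reached 1 TPM in too few of the 8 libraries to be tested. Of the 27, 3 belong to the usual B cell lists, namely Batf, Klf2 and Pdcd1lg2. All 24 others are named below, including some outside the naming rule that were added after their values were seen. The naming rule required that the groups of 5 did not overlap, so for genes it named the lack of overlap is no finding.

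**Figure D2:**
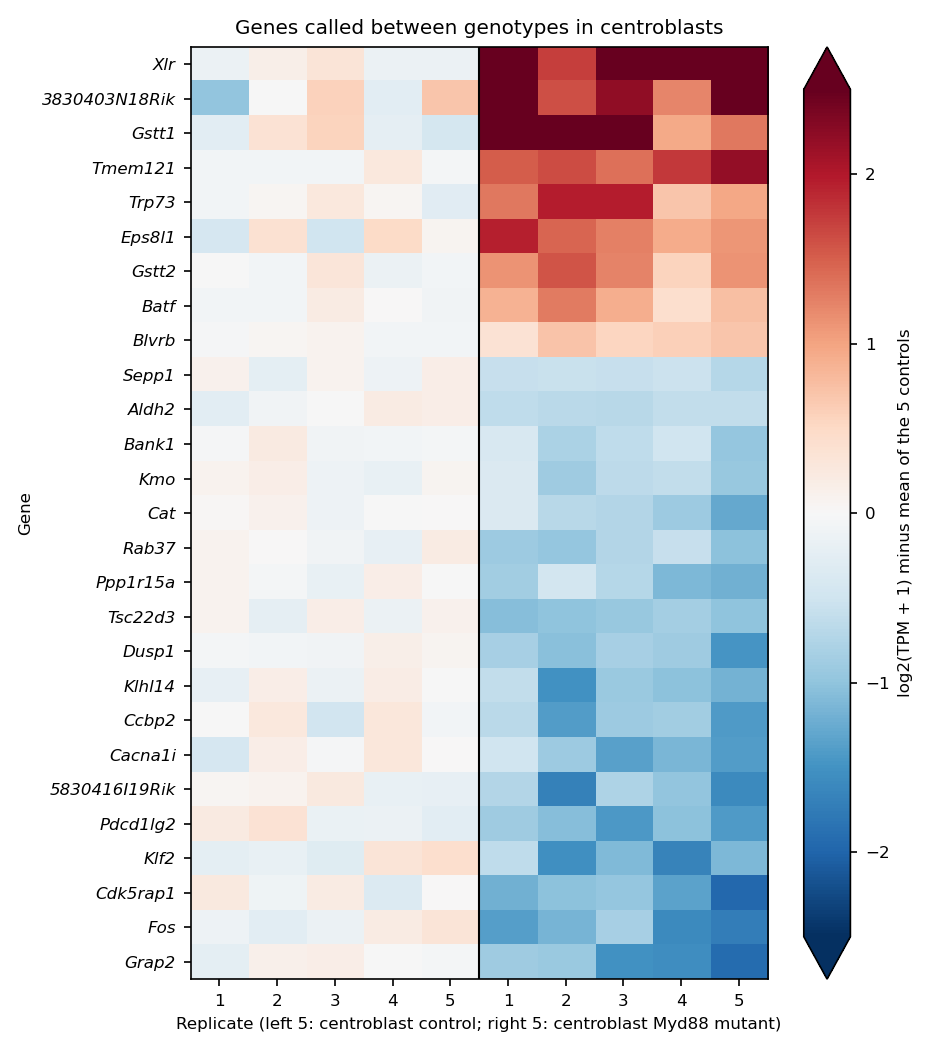
Each row is a called gene and each column a centroblast library, coloured by log2(TPM + 1) minus the mean of the 5 controls. The 9 rises at the top and the 18 falls below them have the same colour in all 5 mutant libraries, and the Gstt1 and Trp73 rows are paler in mutants 4 and 5.

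Transcripts of Myd88 itself (GRCm38, chromosome 9, 119335934 to 119340018) were 80.9, 71.6, 86.7, 96.1 and 77.4 TPM in controls 1 to 5 and 82.8, 93.0, 77.9, 70.4 and 61.8 TPM in mutants 1 to 5. The groups overlapped and the gene was not called (log2 fold change -0.10 ± 0.13 SE, adjusted p = 0.623). The sign was positive without mutants 4 and 5 (0.04). In centrocytes Myd88 was called higher in mutants, at 82.8 to 94.2 TPM against 68.1 to 78.9 TPM in controls (0.25, limma adjusted p = 0.0405). The difference of its effects between the cell types was not called (-0.35, adjusted p = 0.403). Since L252P changes the protein sequence, the transcript level of the gene is no check of the genotype labels. None of 14 tested genes for Toll-like and interleukin-1 family receptors and their partners was called, with a median of -0.075. None of 27 for Myd88, its adaptors, kinases and related factors was called either, with a median of -0.31. Over all genes 0.253% were called and the median was -0.16, so few or no calls were to be expected in lists of this size. Without mutants 4 and 5, 1 of the 27 fell, where 0.932% of all genes fell. It was Irf5, a transcription factor activated through Myd88 (171, 153, 153, 164 and 155 TPM in mutants 1 to 5 against 185 to 237 in controls; -0.40, adjusted p = 0.0322).

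Immediate early genes, which cells induce within minutes of stimulation, included 3 of the falls. Of 20 tested, 3 fell with all 10 libraries and none rose, against 0.168% of all genes. They were Fos, Dusp1 and Ppp1r15a, and the list's median was -0.40 against -0.16 for all genes. The gene lists were chosen with earlier results of these data known, so this count is only a description. Fos encodes a subunit of the AP-1 transcription factor. It was 161, 146, 158, 199.9 and 218 TPM in controls 1 to 5 and 66.9, 77.6, 98.0, 56.8 and 51.6 TPM in mutants 1 to 5. The groups did not overlap, with the lowest control at 146 TPM and the highest mutant at 98.0 TPM (log2 fold change -1.34 ± 0.17 SE, adjusted p = 0.00588). Dusp1 encodes a phosphatase that inactivates MAP kinases. It was 53.8, 52.8, 52.0, 61.9 and 58.8 TPM in controls and 30.8, 26.5, 30.8, 29.6 and 19.3 TPM in mutants, so every mutant lay below every control (-1.02 ± 0.14 SE, adjusted p = 0.0125). Ppp1r15a, also called Gadd34, directs a phosphatase to eIF2 alpha after stress. It was 49.4, 44.8, 41.2, 52.3 and 46.5 TPM in controls and 25.1, 33.9, 28.2, 20.8 and 19.7 TPM in mutants (-0.87 ± 0.15 SE, adjusted p = 0.0398). Without mutants 4 and 5, Zfp36 (-0.54, adjusted p = 0.0351) and Jun (-0.61, adjusted p = 0.0438) also fell and Socs3 rose (1.13, adjusted p = 0.0169). Fosb (4.43, 11.9, 6.69, 4.30 and 5.02 TPM in controls, 1.08, 1.85, 5.23, 1.07 and 1.13 TPM in mutants) overlapped between the groups and was not called (adjusted p = 0.109). Junb and Ier2 were not called either (adjusted p = 0.357 and 0.542). The call of Fos held in all 23 alternatives run, that of Dusp1 in 20 of 23 and that of Ppp1r15a in 13 of 23.

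The promoters of these 3 genes are shown because they fell together. Each sequence is the 250 bases upstream of the RefSeq start in GRCm38.p6, read on the gene's strand. Capitals mark the cyclic AMP response element TGACGTCA and its core TGACGT, searched on both strands, where the core overlaps the full element.
Fos (chr12:85473640-85473889, plus strand): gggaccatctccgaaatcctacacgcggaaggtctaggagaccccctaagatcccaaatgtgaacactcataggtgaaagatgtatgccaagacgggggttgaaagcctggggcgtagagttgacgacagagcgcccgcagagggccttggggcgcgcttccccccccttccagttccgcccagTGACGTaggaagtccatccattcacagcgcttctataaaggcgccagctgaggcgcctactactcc
Dusp1 (chr17:26508473-26508722, minus strand): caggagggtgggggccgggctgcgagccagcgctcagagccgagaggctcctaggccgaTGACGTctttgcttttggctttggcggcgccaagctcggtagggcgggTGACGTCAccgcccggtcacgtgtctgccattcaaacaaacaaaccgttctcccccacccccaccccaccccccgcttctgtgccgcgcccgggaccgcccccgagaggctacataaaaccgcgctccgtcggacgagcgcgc
Ppp1r15a (chr7:45526269-45526518, minus strand): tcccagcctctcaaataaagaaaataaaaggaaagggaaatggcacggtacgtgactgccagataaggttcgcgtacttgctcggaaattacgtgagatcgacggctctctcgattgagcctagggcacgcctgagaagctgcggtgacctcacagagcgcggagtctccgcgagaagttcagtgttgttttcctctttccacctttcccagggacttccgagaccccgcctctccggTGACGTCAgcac
The full element was present in Dusp1, 143 to 136 bases before the start, and in Ppp1r15a, 12 to 5 bases before it. Of 27025 mouse promoters of this length 1.62% held it, and of the 23 called genes with a promoter entry 2 did. The core was in Fos too, 66 to 61 bases before the start, and in 6.56% of all promoters, against 5 of the 23 called genes (Batf, Dusp1, Eps8l1, Fos and Ppp1r15a). The core was added to the search after the first 5 motifs had been looked at, so its count is only a description. The other motifs searched were AP-1 (TGANTCA, 6.87% of all promoters), a kappaB site (0.94%), the antioxidant response core (TGACNNNGC, 10.1%) and a glucocorticoid response element (0.0037%). Of these, the called genes held the antioxidant core in Dusp1 and Trp73 and none of the others. A match does not show that a factor binds there.

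Tsc22d3, also called Gilz, is best known as a glucocorticoid-induced gene and lies on chromosome X. It was 59.1, 47.4, 62.9, 50.3 and 60.4 TPM in controls 1 to 5 and 26.0, 27.4, 28.4, 30.6 and 27.2 TPM in mutants 1 to 5. The mutant libraries sat within a narrow range of 26.0 to 30.6 TPM, below all controls, mutants 4 and 5 included (-0.97 ± 0.12 SE, adjusted p = 0.00542), and the call held in all 23 alternatives. Of 13 glucocorticoid-responsive genes tested it was the only called member, against 0.253% of all genes, with a list median of -0.17 against -0.16 for all genes. That list too was chosen with earlier results known, so its count is only a description. Fkbp5, another gene of that list, was 44.1 to 51.3 TPM in controls and 23.3 to 52.3 TPM in mutants and was not called (adjusted p = 0.5). Klf2, a quiescence and trafficking factor of lymphocytes, was 32.1, 33.1, 30.4, 47.8 and 51.2 TPM in controls and 24.1, 12.4, 17.3, 11.3 and 17.03 TPM in mutants (-1.21, adjusted p = 0.0398). Markers of naive and marginal zone B cells, a list that holds Klf2, summed to 507 ± 85.1 TPM in controls and 329 ± 78.7 TPM in mutants (SD, n = 5 each; exact two-sided permutation p = 0.00794, the smallest that 5 against 5 allows, and 0.0357 without mutants 4 and 5). The groups were barely apart, with mutant 1 at 449.7 TPM and control 3 at 450.9 TPM. All 13 of these markers were above 0 somewhere, and their part in the fall of Klf2 was not tested.

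Gstt1 and Gstt2, theta-class glutathione transferases that conjugate glutathione to electrophilic compounds, rose in mutants. Of 24 glutathione and detoxification genes tested, 2 rose and 1 fell with all 10 libraries, where 0.0842% of all genes rose and 0.168% fell. The list was chosen with earlier results of these data known, so these counts are only a description. Gstt1 (GRCm38, chromosome 10, 75783813 to 75798584) was 11.6, 18.2, 21.1, 11.8 and 10.1 TPM in controls 1 to 5 and 86.7, 126, 97.7, 27.9 and 36.6 TPM in mutants 1 to 5. All mutants lay above all controls, and mutants 4 and 5 were the lowest of the 5 (2.12 ± 0.37 SE, adjusted p = 0.0398; 2.78 without them). Gstt2 (GRCm38, chromosome 10, 75831842 to 75837419) was 62.0, 59.3, 77.8, 56.2 and 59.9 TPM in controls and 138, 189, 149, 93.2 and 138 TPM in mutants (1.13 ± 0.16 SE, adjusted p = 0.0149). The other tested theta-class gene, Gstt3, was 8.94, 11.7, 15.0, 12.8 and 8.45 TPM in controls and 23.8, 29.5, 21.3, 10.7 and 12.3 TPM in mutants. The groups overlapped, with mutants 4 and 5 within the control range, and it was called only without them (1.08, adjusted p = 0.00551). These genes share sequence, so reads that fit several of them make their separate values uncertain.

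The same stretch of chromosome 10 held further genes that lay higher. Ddt, which encodes D-dopachrome tautomerase and lies beside Gstt3, was 147, 190.0, 183, 163 and 164 TPM in controls and 291, 347, 312, 207 and 249 TPM in mutants. All mutants were above all controls, and the call was made without mutants 4 and 5 (0.90, adjusted p = 4.75e-04) but not with them (0.71, adjusted p = 0.0553). Mif, the related cytokine gene nearby, was 186, 200.1, 200.3, 229 and 188 TPM in controls and 248, 270.3, 261, 249.7 and 441 TPM in mutants, also without overlap (0.37, adjusted p = 0.0343 without mutants 4 and 5). Others of the stretch were not called in either fit, with Cabin1 at -0.28 (adjusted p = 0.38) and Smarcb1 at 0.03 (adjusted p = 0.865).

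Falls in genes that handle peroxide and aldehyde stood beside these rises. Of 22 thiol and antioxidant genes tested, 2 fell and none rose, Cat and Sepp1, where 0.168% of all genes fell. The list median was 0.0067 against -0.16 for all genes. Its members were chosen with earlier results of these data known, so the count of falls is only a description. Cat encodes catalase, which breaks down hydrogen peroxide. It was 459, 488, 412, 449 and 453 TPM in controls 1 to 5 and 350.4, 280.0, 270.3, 239 and 186 TPM in mutants 1 to 5, a fall in every mutant library and least in mutant 1 (-0.80 ± 0.14 SE, adjusted p = 0.0398). Sepp1 (now Selenop), a secreted selenium carrier, was 213, 167, 210.4, 179 and 220.0 TPM in controls and 131, 133, 132, 136 and 119 TPM in mutants (-0.59 ± 0.10 SE, adjusted p = 0.0398). Aldh2, the mitochondrial aldehyde dehydrogenase, was 376, 422, 444, 521 and 502 TPM in controls and 288, 283, 277, 292 and 295 TPM in mutants, where the libraries differed by only 7.04 TPM (SD, n = 5) (-0.65 ± 0.10 SE, adjusted p = 0.0212). Blvrb, biliverdin reductase B, went the other way. It was 885, 935, 959, 856 and 859.8 TPM in controls and 1149, 1463, 1297, 1359 and 1455 TPM in mutants, without overlap (0.58 ± 0.09 SE, adjusted p = 0.0215). Blvrb and Cat are abundant in red cells, and erythroid markers summed to 96.0 to 339 TPM in controls and 400.3 to 904 TPM in mutants (exact two-sided permutation p = 0.00794). Of 9 erythroid markers found, 4 were at 0 in all 10 libraries, the globin genes Hba-a1, Hba-a2, Hbb-b1 and Hbb-b2 as the files name them. Another globin entry, the adult beta globin Beta-s, was 20.9 to 260.4 TPM in controls and 314 to 777 TPM in mutants and made up most of the difference in the sum. The part of these markers in the rise of Blvrb was not tested. In centrocytes Blvrb was 367 to 524 TPM in controls and 435 to 496 TPM in mutants and was not called (0.15, adjusted p = 0.424).

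**Figure D3:**
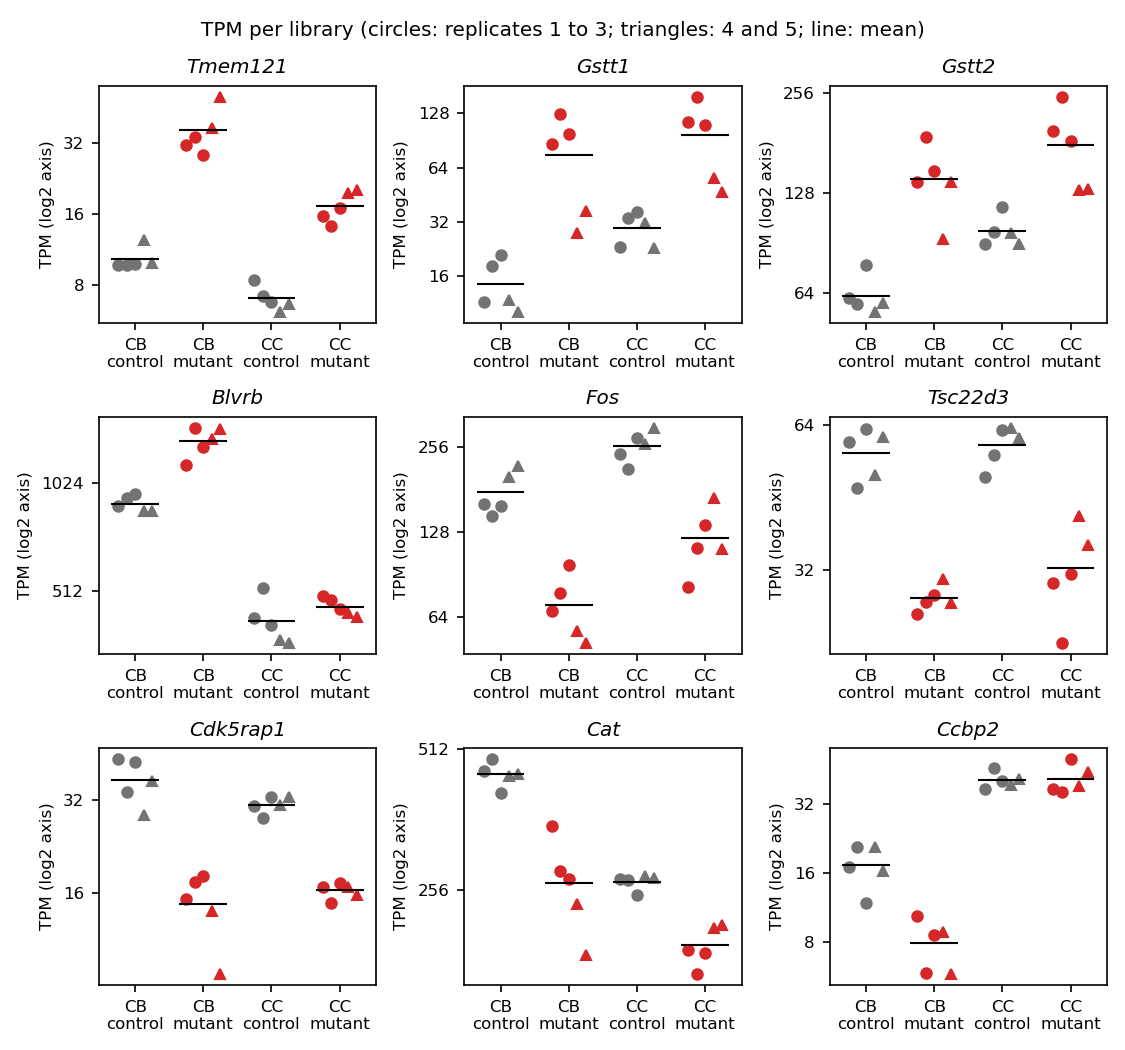
TPM per library on a log2 axis for 9 called genes in centroblasts (CB) and centrocytes (CC), with grey controls, red mutants, triangles for replicates 4 and 5 and a line at each group mean. In centroblasts the red and grey points do not overlap for any of the 9 genes, which the naming rule required. For Blvrb and Ccbp2 the points overlap in centrocytes, where the rule asked for nothing.

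Tmem121, a transmembrane protein gene beside the immunoglobulin heavy chain locus, was called with one of the smallest adjusted p. It was 9.73, 9.70, 9.82, 12.5 and 9.90 TPM in controls 1 to 5 and 31.3, 34.2, 28.4, 37.3 and 50.4 TPM in mutants 1 to 5, and mutants 4 and 5 were the highest (1.70 ± 0.16 SE, adjusted p = 5.12e-04). Its neighbour Crip1, a LIM domain protein gene, was 1691 to 2152 TPM in controls and 2257 to 3538 TPM in mutants, without overlap but not called (adjusted p = 0.136). Xlr, an X-linked lymphocyte-regulated gene, was 0, 0.235, 0.385, 0 and 0 TPM in controls and 12.04, 2.70, 11, 8.75 and 8.48 TPM in mutants. It was at or near 0 in every control and above 2 TPM in every mutant. No control reached 1 TPM, so Xlr passed the filter on low values only through the mutants, and its call (adjusted p = 5.12e-04) is no independent sign of a difference. The X-linked gene model 3830403N18Rik was 0, 0.951, 1.95, 0.645 and 2.19 TPM in controls and 19.0, 5.02, 8.24, 3.61 and 11.9 TPM in mutants (adjusted p = 0.0398). It too passed the filter only through the mutants, so the same limit holds for its call. Other genes of the Xlr family were not called: Xlr3b was 5.48 to 10.3 TPM in controls and 0.978 to 12.9 TPM in mutants, and Xlr4a 12.9 to 22.5 and 15.6 to 28.6 TPM (adjusted p = 0.574 and 0.507). Copies of this family are similar, which makes their values uncertain.

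Trp73, which encodes a p53 family transcription factor, was 0.851, 1.002, 1.31, 0.988 and 0.586 TPM in controls and 3.82, 6.51, 6.57, 2.14 and 2.80 TPM in mutants (1.38 ± 0.25 SE, adjusted p = 0.0398). Every mutant was above every control, at a low level. Most controls were under 1 TPM, so Trp73 passed the filter only through the mutants. Its call is no independent sign of a difference. Eps8l1, an actin regulator related to Eps8, was 2.81, 5.67, 2.60, 6.17 and 4.33 TPM in controls and 18.5, 13.0, 11.3, 8.77 and 9.97 TPM in mutants (1.34 ± 0.24 SE, adjusted p = 0.0398). Batf, an AP-1 partner that dimerises with JUN proteins, was 27.9, 27.6, 33.7, 29.3 and 27.4 TPM in controls and 53.7, 72.8, 55.3, 39.3 and 49.4 TPM in mutants (0.85, adjusted p = 0.0398). It rose while Fos, another AP-1 gene on chromosome 12, fell.

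Cdk5rap1 adds a methylthio group to mitochondrial transfer RNA. It was 43.5, 33.9, 42.4, 28.5 and 36.8 TPM in controls 1 to 5 and 15.3, 17.4, 18.1, 13.9 and 8.70 TPM in mutants 1 to 5, without overlap (-1.30 ± 0.19 SE, adjusted p = 0.0161). Of 48 genes for transfer RNA modification it was the only called one, against 0.253% of all genes, and the list median was -0.11 against -0.16. Earlier results of these data were known when this list was chosen, so its count is only a description. Genes on chromosome 15 that fell included Grap2 and Cacna1i. Grap2, also called Gads, links antigen receptor signalling to SLP-76 in T cells and other blood cells. It was 12.6, 16.4, 16.97, 14.9 and 14.4 TPM in controls and 7.66, 7.41, 4.59, 4.42 and 3.19 TPM in mutants, with every mutant below every control (-1.36 ± 0.21 SE, adjusted p = 0.0177). Its neighbour Fam83f was 3.95, 2.84, 4.32, 6.52 and 5.81 TPM in controls and 1.43, 1.86, 0.607, 2.03 and 2.30 TPM in mutants and was called without mutants 4 and 5 (-1.31, adjusted p = 0.0104). Cacna1i, a T-type calcium channel gene on the same chromosome, was 10.5, 16.5, 14.1, 17.8 and 14.5 TPM in controls and 9.90, 7.22, 5.01, 5.98 and 4.87 TPM in mutants (-1.07 ± 0.20 SE, adjusted p = 0.0498). Kmo encodes kynurenine 3-monooxygenase, an enzyme of tryptophan breakdown. It was 135, 143, 116, 111 and 133 TPM in controls and 98.8, 68.0, 80.3, 83.2 and 65.4 TPM in mutants (-0.69, adjusted p = 0.0476), and its neighbour Opn3, an opsin gene, was 8.70, 11.99, 7.98, 10.2 and 11 TPM in controls and 5.65, 5.41, 5.55, 5.03 and 3.79 TPM in mutants, called only without mutants 4 and 5 (-0.74, adjusted p = 0.0186). Within 100 kb of a called gene lay 71 further tested genes, a set that leaves out the genes called with all 10 libraries. Of these 71, 5 were called without mutants 4 and 5, against 2.6% of all genes, namely Fam83f, Gstt3, Ddt, Mif and Opn3. Within 5 Mb of Myd88, 1 of 52 tested genes was called, Ccbp2, against 0.253% of all genes.

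Ccbp2 (now Ackr2), a decoy receptor for chemokines, was 16.98, 20.7, 11.9, 20.8 and 16.3 TPM in controls and 10.3, 5.85, 8.57, 8.80 and 5.75 TPM in mutants, so no mutant reached the lowest control (-1.05 ± 0.20 SE, adjusted p = 0.0498). Klhl14, an adaptor of a ubiquitin ligase expressed in B cells, was 16.0, 20.8, 16.5, 21.2 and 18.3 TPM in controls and 11.7, 5.85, 9.16, 8.62 and 7.60 TPM in mutants (-1.05, adjusted p = 0.0336). Bank1, a scaffold of B cell receptor signalling, was 280.0, 333, 267, 272 and 276 TPM in controls and 214, 164, 183, 200.5 and 145 TPM in mutants (-0.66, adjusted p = 0.0398). Each of these is lower in every mutant library than in every control. Rab37, a GTPase of secretory vesicles, was 6.46, 6.05, 5.6, 5.08 and 7.07 TPM in controls and 2.74, 2.57, 3.24, 3.68 and 2.46 TPM in mutants (-0.84, adjusted p = 0.0479). Pdcd1lg2, the PD-1 ligand PD-L2, was 6.52, 7.32, 4.78, 4.82 and 4.38 TPM in controls and 2.51, 2.11, 1.40, 2.16 and 1.42 TPM in mutants (-1.16, adjusted p = 0.0217). The gene model 5830416I19Rik was 2.54 to 3.86 TPM in controls and 0.265 to 1.46 TPM in mutants (-1.15, adjusted p = 0.0499). It passed the filter on low values only through the controls, so its call is no independent sign of a difference.

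Most of these calls were lost in some fits that left out 1 library. Leaving out any 1 control left 4 to 6 called genes, and leaving out mutant 2 or 3 left 8 and 7. Leaving out mutant 1, 4 or 5 gave 97, 18 and 55. The calls of Fos, Tmem121 and Tsc22d3 held in all 10 fits that left out 1 library. Xlr was tested only in the 5 that kept all mutants, which the filter fixes. Cdk5rap1 was called in 6 of 10 of them, Dusp1 in 7 of 10, Gstt2 in 5 of 10, Grap2 and Aldh2 in 4 of 10 each, and Gstt1 in 3 of 10. Bank1, Cat, Kmo, Ccbp2, Cacna1i, Klhl14, Rab37, Sepp1 and Blvrb were called in 2 of 10 each. The direction of the 27 genes was the same in every alternative run.

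The genes called without mutants 4 and 5 were also looked at in those 2 libraries. For the 177 genes called higher, the median log2 difference from the control mean was 0.82, 0.91 and 0.79 in mutants 1 to 3, and 0.089 and -0.061 in mutants 4 and 5. Mutants 4 and 5 both lay within the control range for 46 of the 177 (26.0%, against 16.3% of all genes tested). For the 99 called lower it was -0.50, -0.76 and -0.66 in mutants 1 to 3 and -0.50 and -0.75 in mutants 4 and 5. The median of all genes tested was itself -0.26 and -0.52 in mutants 4 and 5. Both sets thus lay off the median of all genes in their own direction there. The choice of these genes used mutants 1 to 3, so their values there are no finding. The following 4 genes were chosen after their values were seen. Chst1, a sulfotransferase gene, was 33.3, 44.2, 34.3, 1.51 and 2.99 TPM in mutants 1 to 5 and 0.915 to 11.5 TPM in controls. Fam101a (now Rflna), an actin-binding filamin partner, was 36.3, 41.2, 25.3, 5.14 and 5.76 TPM in mutants and 2.87 to 6.61 TPM in controls. In both, mutants 4 and 5 sit at the level of controls and mutants 1 to 3 above it. Rgs1, a brake on chemokine receptor signalling, was 42.1, 28.0, 35.5, 131 and 146 TPM in mutants and 98.7 to 253 TPM in controls. Tox2, an HMG box factor, was 48.3, 46.1, 27.0, 11 and 15.5 TPM in mutants and 4.39 to 12.2 TPM in controls. In centrocytes, which are separate libraries, the 177 genes had medians of 0.62, 0.83 and 0.69 in mutants 1 to 3 and 0.25 and 0.24 in mutants 4 and 5, so mutants 4 and 5 lay nearest to controls there too. Ribosomal protein genes took 8.03% and 8.84% of TPM in centrocyte mutants 4 and 5, 7.37% to 8.28% in centrocyte mutants 1 to 3 and 7.79% to 8.61% in centrocyte controls, so mutant 5 lay slightly above the control range and mutant 4 within it. The labels do not say whether libraries with the same number share a mouse.

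Described as lists, other groups of genes depended on these libraries. The lists were chosen with earlier results of these data known, so their counts are only a description. With all 10 libraries no member of 41 interferon-inducible genes was called, and the median was 0.12 against -0.16 for all genes. Without mutants 4 and 5, 8 of 39 rose and none fell, against 1.67% of all genes, with a median of 0.28 against -0.023. They included the GTPase genes Igtp (38.8, 43.7, 38.6, 23.6 and 22.4 TPM in mutants 1 to 5, 17.3 to 29.9 TPM in controls) and Tgtp2 (5.30, 8.34, 4.19, 1.96 and 2.12 and 0.856 to 3.19). Proteasome genes gave 3 rises of 38 without mutants 4 and 5, against 1.67% of all genes, and none with all 10. The rises were the immunoproteasome subunits Psmb9 (0.57, adjusted p = 0.00523) and Psmb10 (0.39, adjusted p = 0.0476) and the activator subunit Psme2 (0.46, adjusted p = 0.0481). The serpin and protease inhibitor list gave 3 rises and 1 fall of 11 without mutants 4 and 5, where 1.67% of all genes rose and 0.932% fell. Its median in that fit was -0.020 against -0.023 for all genes. It was led by Serpina3g, at 81.7, 122, 65.2, 29.9 and 26.9 TPM in mutants and 12.7 to 24.6 TPM in controls.

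Lists of short or long transcripts had shifted medians with no member called with all 10 libraries, and Rps29 was the only member called without mutants 4 and 5 (0.77, adjusted p = 0.0178). With all 10 libraries ribosomal proteins of the large and small subunit (48 and 33 tested) had medians of 0.27 and 0.29, and respiratory chain genes (70) 0.21. Without mutants 4 and 5 they were 0.092, 0.081 and 0.052. Genes with very long transcripts (36) had a median of -0.59, and -0.064 without those libraries, and chromatin regulators (52) -0.39 and -0.085. The part of the composition of mutants 4 and 5 in these shifts was not tested beyond leaving them out. Solute transporters, sterol synthesis, circadian clock, glycosylation, splicing and Wnt, Notch, Hedgehog and TGF-beta genes had no member called with all 10 libraries.

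**Figure D4:**
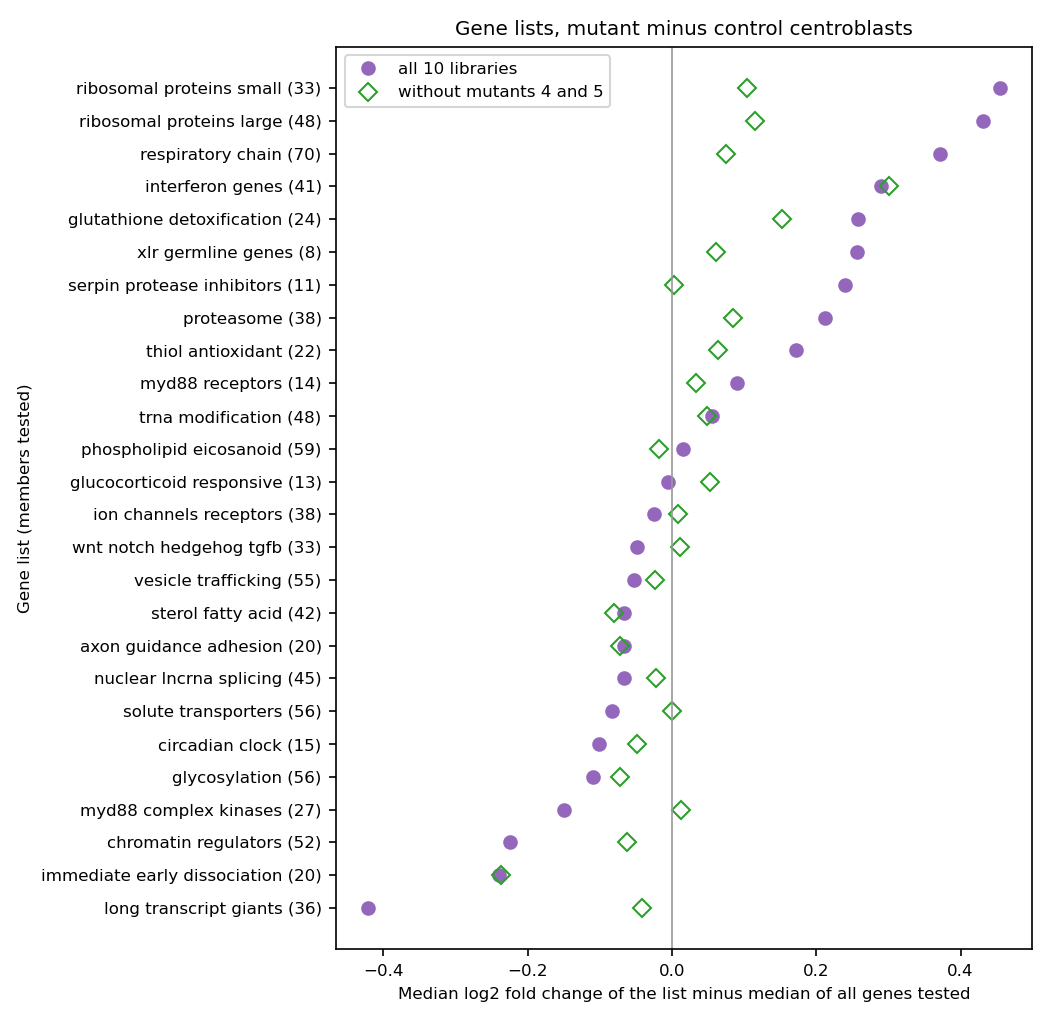
Each row is a gene list with the number of members tested, and points give the list's median log2 fold change minus the median of all genes tested, filled for all 10 libraries and open without mutants 4 and 5. Ribosomal and respiratory chain lists lie above 0 and the long-transcript list below it with all 10 libraries, and their open points are closer to 0.

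Of the 27 called genes 26 had the same sign in centrocytes. Over all 10582 genes tested in both, the share was taken only with the centroblast sign without mutants 4 and 5. It was 62.9%, so the 2 shares are not the same measure. Of the 27, 16 were called in centrocytes in that direction, where 302 of 11115 genes were called (2.72%), 198 higher (1.78%) and 104 lower (0.936%). The exception in sign was Ccbp2, at 37.2, 46.1, 40.4, 39.0 and 41.3 TPM in control and 37.5, 36.1, 50.6, 38.4 and 44.2 TPM in mutant centrocytes (0.01, adjusted p = 0.972). Fos was 213 to 299 TPM in control and 81.6 to 169 TPM in mutant centrocytes (-1.11, adjusted p = 0.00949), and Tmem121 6.14 to 8.39 and 14.2 to 20.2 TPM (1.19, adjusted p = 4.30e-04). Grap2 was 23.8 to 49.3 TPM in control and 27.0 to 33.5 TPM in mutant centrocytes and was not called (-0.28, adjusted p = 0.41). Kmo (-0.13, adjusted p = 0.457) and Bank1 (-0.06, adjusted p = 0.791) were not called there either. None of the 27 was called for the difference between the cell types, which was tested directly and gave 2 of 11386 genes (0.0176%). For Ccbp2 the difference was -1.07 ± 0.22 SE (adjusted p = 0.219), for Grap2 -1.08 (adjusted p = 0.322) and for Bank1 -0.60 (adjusted p = 0.322). Missing the threshold does not show that the changes were alike.

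**Figure D5:**
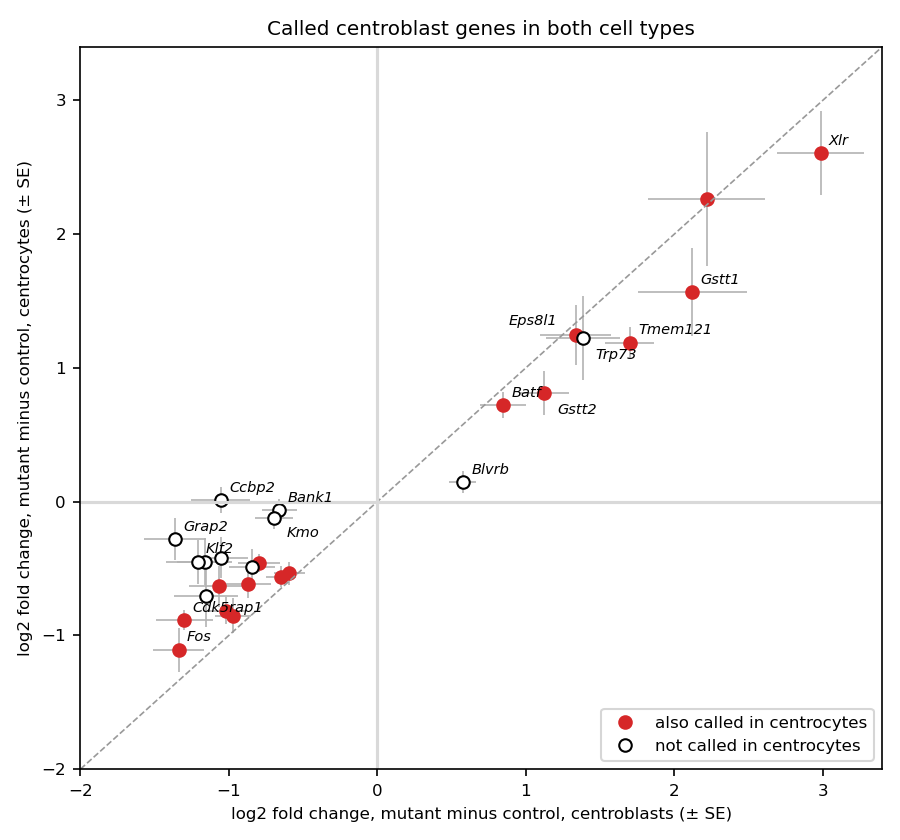
Log2 fold change with standard error of the 27 called genes in centroblasts (x axis) and centrocytes (y axis), with the line of equal change dashed. Filled red points are the 16 genes also called in centrocytes; Ccbp2 lies at 0.01 on the y axis.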

How the data were processed

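RNA was measured in 20 sorted libraries, 10 of them centroblasts, with a stranded mRNA kit per the labels' protocols. The authors deposited TPM per gene symbol (23382 symbols), made with STAR on mm10 per the submitters' processing notes. Counting tool, annotation and versions were not given in sources used for this work, and TPM keeps no depth, so read depth is unknown and no counting interval is given. Titles and genotype labels gave the groups. Genotypes were compared with limma 3.58.1 (R 4.3.3; eBayes, trend, robust; two-sided) on log2(TPM + 1) over the 10 centroblast libraries, with the same fit on centrocytes and 4 group means for the difference. On simulated data with 10693 genes it recovered 90% of changes of 1 and 47.7% of changes of 0.5 (log2) in centroblasts, with 7.33 false calls per draw. Changes were planted only in genes above 5 TPM, and the noise was independent between genes. The simulation thus lacked the shift in composition of mutants 4 and 5, and its values may not hold for the real libraries. Genes outside the usual lists were named if called with and without mutants 4 and 5, at 5 TPM or more in a group mean and without overlap, the 12 largest each way. The members and 44 lists were chosen with earlier results of these data known. Positions and promoters are RefSeq GRCm38.p6, and transcript lengths GENCODE M21. Replicate numbers are not known to pair libraries. Deviations of same-numbered control and mutant centroblast libraries correlated at -0.275 to 0.145. Same-numbered centroblast and centrocyte libraries were not compared in this way. Some list results are not reported here.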

Additional observations from a re-analysis of the deposited data

Results flagged for a closer look

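In 66 groups of 5 values looked at, 4 had an extreme library far from the other 4, and chance gives about 1 in 20. Control 2 was highest for Bank1, at 333 TPM against 267 to 280 in the other controls. Control 3 was highest for Gstt2, at 77.8 TPM against 56.2 to 62.0, and control 4 for Tmem121, at 12.5 TPM against 9.70 to 9.90. Mutant 5 was lowest for Sepp1, at 119 TPM against 131 to 136. In each case the extreme value stayed on its own group's side of the other genotype.

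The genotype effect differed between cell types for 2 genes, both of the usual B cell lists. For 8430410A17Rik (now Hmces) the effect was 0.17 in centroblasts and -0.55 in centrocytes, a difference of 0.71 (limma adjusted p = 0.0241). For Pafah1b3 it was 0.27 and -0.48, a difference of 0.75 (adjusted p = 0.0241). Neither was called in centroblasts (adjusted p = 0.33 and 0.284).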

How the results depend on the processing

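The count of called genes in centroblasts, 27, was 92 after median-of-ratios scaling (59 higher, 33 lower), 13 with no filter, 13 without trend and robust fitting, 765 with library weights, 276 without mutants 4 and 5, 488 with 4 group means over 20 libraries, and, in alternatives chosen after seeing the data, 105 with the trend in transcript length removed and 310 without mutants 4 and 5 at 1 TPM in 3 libraries. With the replicate block it was 33. Leaving out 1 library gave 4 to 97. Of the 27 genes, 22 were called after the scaling, 11 with no filter, 18 with the replicate block and 27 with library weights. The count for the difference, 2, was 0 after scaling and without trend and robust fitting, where a count of 0 is read beside 1322 genes at an unadjusted p under 0.05 in the fit as reported. It was 4 with a pseudocount of 5, 9 with library weights, 4 without mutants 4 and 5 and 14 with the replicate block, and 0 to 7 with 1 library left out. In centrocytes 302 became 664 with the replicate block and 56 to 415 with 1 library left out. Same-numbered libraries are not known to be paired. The fold change of Myd88 turned positive after scaling (0.084), with library weights (0.055), without mutants 4 and 5 (0.038 with either filter) and with the length trend removed (0.11). The mutant minus control number of genes above 0, -25.0, was 196 without mutants 4 and 5, and -83.2 to 80.1 with 1 library left out. The ribosomal share difference, 2.61 points, ranged from 1.24 to 3.35 and that of short genes, 3.26 points, from 1.604 to 4.20 with 1 library left out, and both passed an exact permutation test only without mutant 1. For the 27 genes 386 alternative fits kept the call, 224 lost it and none changed sign. The causes were not tested. Read depth is unknown, and low genes such as Xlr depend most on the pseudocount.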
